A study of Mus musculus with 8 samples.

Results

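The 7 genes Gad1, Gad2, Slc32a1, Slc6a5, Slc6a9, Slc6a11 and Abat make, load, clear or break down GABA and glycine, the fast inhibitory transmitters of the nervous system. They were found by name in the gene tables of 8 libraries, where they are 7 of 51826 genes; the rule uses no measured value, though earlier results of these data were known when the set was named. Their total exon reads were compared between genotypes, with exon-exon reads (reads that cross a splice junction) and intron reads given beside them. RNA came from the hypothalamus of C57BL/6 mouse fetuses at embryonic day 14.5, dissociated and sorted for red fluorescent protein. In 4 libraries, numbered 9 to 12, the fetuses were Ptf1a cre/cre; Ai9/+, here called homozygous and named KO in the labels. In the other 4 libraries, numbered 1 to 4, they were Ptf1a cre/+; Ai9/+, here called heterozygous. Cre at the Ptf1a locus switches on the Ai9 reporter, which marks cells that express Ptf1a-cre and all their descendants. The heterozygous controls also carry 1 cre allele of Ptf1a, and no wild-type library is compared here. The labels do not say whether a library came from 1 fetus or from a pool, nor that libraries of a genotype came from separate litters, so p-values measure only the spread between these libraries.

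Glutamate decarboxylases make GABA from glutamate, a vesicular transporter loads GABA and glycine into synaptic vesicles, plasma membrane transporters clear them, and GABA transaminase breaks GABA down. Many hypothalamic neurons are GABAergic, whereas glycinergic neurons are known chiefly from the hindbrain and spinal cord. In the spinal cord and cerebellum Ptf1a, a basic helix-loop-helix factor that binds E-box sequences in DNA as part of a complex with RBPJ or RBPJL, is required for inhibitory neurons to form.

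The stretches upstream of a RefSeq start of 4 of the genes are shown because Gad1, Gad2, Slc32a1 and Slc6a5 are the genes that mark a neuron as GABAergic or glycinergic, and because the factor altered here recognises the E-box. They come from RefSeq promoters of mouse build GRCm38.p6, which held 6 of the 7 genes. Each is 250 bases long, or shorter where a GENCODE exon of the same gene began sooner. The Slc32a1 window was not shortened. The Gad1 window lies inside the longer GENCODE locus of that gene, and Slc6a5 has a second RefSeq start whose window is described but not printed. All 4 are on the plus strand, at chr2:70561879-70562041 for Gad1, chr2:22622077-22622204 for Gad2, chr2:158610508-158610757 for Slc32a1 and chr7:49910049-49910145 for Slc6a5. Capitals mark matches to the E-box, CANNTG, which reads the same on both strands.
Gad1: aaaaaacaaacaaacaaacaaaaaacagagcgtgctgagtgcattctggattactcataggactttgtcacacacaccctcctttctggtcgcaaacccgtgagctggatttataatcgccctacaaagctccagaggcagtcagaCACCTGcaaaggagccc
Gad2: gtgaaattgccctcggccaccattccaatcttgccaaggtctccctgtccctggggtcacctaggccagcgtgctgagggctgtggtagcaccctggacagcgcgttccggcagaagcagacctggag
Slc32a1: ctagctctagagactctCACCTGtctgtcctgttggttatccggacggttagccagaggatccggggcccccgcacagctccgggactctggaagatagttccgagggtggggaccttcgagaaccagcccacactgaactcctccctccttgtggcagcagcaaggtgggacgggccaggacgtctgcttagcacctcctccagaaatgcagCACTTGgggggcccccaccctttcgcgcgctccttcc
Slc6a5: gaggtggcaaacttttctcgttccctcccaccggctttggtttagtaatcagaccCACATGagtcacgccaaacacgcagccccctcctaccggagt

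The 163 bases of Gad1 held 1 E-box, the 250 bases of Slc32a1 held 2, the 97 bases of Slc6a5 held 1 and the 128 bases of Gad2 held 0. The second Slc6a5 window, 250 bases at chr7:49911450-49911699, held 2, CACTTG and CATCTG. Over windows of the same length in 32851 RefSeq promoters, an E-box was found in 52.1% at the length of Gad1, 66.2% at that of Slc32a1, 35.3% at that of Slc6a5 and 43.9% at that of Gad2. TGGGAA or its complement TTCCCA, the core letters that RBPJ recognises, was in none of these 5 windows, and 9.20% to 21.6% of promoters held it at these lengths. A match is a description of letters, and its absence says only that they are not in that window.

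The libraries held 2502387 to 3009181 exon reads, and CPM, exon reads per 1000000 after TMM scaling, were used as levels. Ptf1a itself had 1 exon read in all 8 libraries together, in heterozygous library 3, so it gives no check of the labels. Neuron markers (7 genes) summed to 5545 to 6425 CPM in homozygous and 5071 to 5474 CPM in heterozygous libraries, without overlap. Of these 7, 4 were called higher in homozygous libraries and 1 lower, where 13.1% of all genes tested were called. Hypothalamic markers (10 genes) summed to 589.6 to 869 CPM in homozygous and 778 to 964 CPM in heterozygous libraries, and 3 of the 9 tested were called lower and 0 higher. GC-rich transcripts had lower relative levels in homozygous libraries: the slope of log2 level on transcript GC content, relative to the mean of all libraries, was -0.35 to -0.20 per 10 points in homozygous and 0.05 to 0.46 in heterozygous ones. Reads over olfactory and vomeronasal receptor genes, which these cells should not express, stood at 0.0964 to 0.626 CPM per kilobase in homozygous and 0.0105 to 0.241 in heterozygous libraries. Fits with a correction for GC content, or with the receptor-gene density as a covariate (added after the data were seen), stand beside results below. The GC slopes did not overlap between genotypes, and the correction took no account of genotype. It can therefore also remove a genotype difference that follows GC content. A difference or call lost after it cannot be assigned to GC content or to genotype. Receptor-gene density also differed with genotype, at 0.429 ± 0.230 CPM per kilobase in homozygous and 0.109 ± 0.107 in heterozygous libraries (mean and SD). A difference that shrinks or grows with that covariate therefore cannot be assigned to the density or to genotype.

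All 7 genes had exon reads, and their order by length-scaled level, the TPM values that the authors deposited, was the same in the means of both genotypes. Abat stood highest, at 52.2 ± 4.69 TPM in homozygous and 70.8 ± 8.82 TPM in heterozygous libraries (SD, n = 4 each). Gad2 averaged 27.6 ± 9.21 TPM in homozygous and 35.8 ± 16.8 TPM in heterozygous libraries. Slc32a1 averaged 18.6 ± 7.67 TPM in homozygous and 28.7 ± 5.36 TPM in heterozygous libraries, above Gad1 with 12.7 ± 4.13 TPM in homozygous and 16.3 ± 5.65 TPM in heterozygous ones. The transporters of the plasma membrane were the lowest of the set. Slc6a11 averaged 5.55 ± 2.25 TPM in homozygous and 8.61 ± 2.87 TPM in heterozygous libraries. Slc6a9 averaged 4.48 ± 2.54 TPM in homozygous and 2.95 ± 1.65 TPM in heterozygous libraries, and Slc6a5 2.42 ± 1.55 TPM in homozygous and 0.588 ± 0.434 TPM in heterozygous ones. By mean over all libraries, Abat lay above 75.4% of the 12257 genes tested, Gad1 above 33.1% and Slc6a5 above 0.506%.

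Neighbours in that order were not equally far apart. Abat was above Gad2, Slc32a1 above Gad1, and Slc6a9 above Slc6a5 in 8 of 8 libraries. Gad2 was above Slc32a1 and Gad1 above Slc6a11 in 7 of 8, and Slc6a11 was above Slc6a9 in 6 of 8. The ranges over libraries of every neighbouring pair overlapped, so the order within a library is clearer than the order of the pooled values. Among the 7, Abat was the gene whose TPM did not overlap between genotypes, with 48.5 to 59.0 TPM in homozygous and 62.0 to 79.0 TPM in heterozygous libraries, beside 15.6% of all tested genes that were lower without overlap on the same scale.

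**Figure D1:**
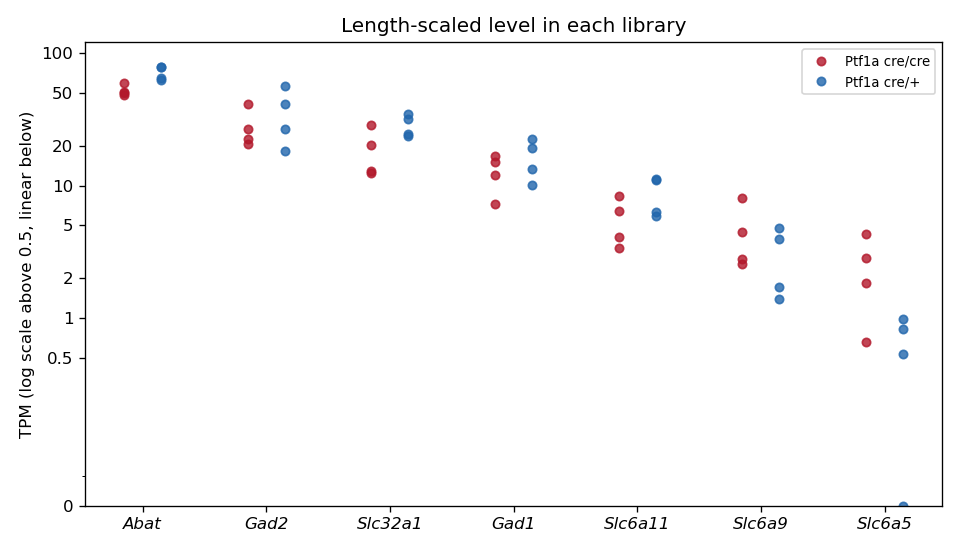
Length-scaled level of the 7 genes in TPM, as the authors deposited it, on an axis that is logarithmic above 0.5 and linear below; each point is a library, red for Ptf1a cre/cre and blue for Ptf1a cre/+. Abat is highest at 48.5 to 79.0 TPM and Slc6a5 lowest at 0 to 4.32 TPM.

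Between genotypes, none of the 7 genes passed on exon reads. Of the 7, 6 had enough reads to be tested, and 0 of these 6 passed at an adjusted p under 0.05 in edgeR's quasi-likelihood test, beside 13.1% of all genes tested. DESeq2 called 0 of the 5 to which it gave an adjusted p. An unadjusted edgeR p under 0.05 was found for 1 of the 6, Abat, beside 3597 of the 12257 genes tested. Of the 6 tested genes 5 were lower in value in homozygous libraries and 1 was higher, where 46.6% of all genes tested were lower. Their median log2 fold change was -0.27 against 0.04 over all genes. In CPM none of the 7 separated the genotypes, where 19.6% of genes tested did. Since these are sorted bulk samples, fewer cells that use a gene and less RNA of it per cell cannot be told apart.

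**Figure D2:**
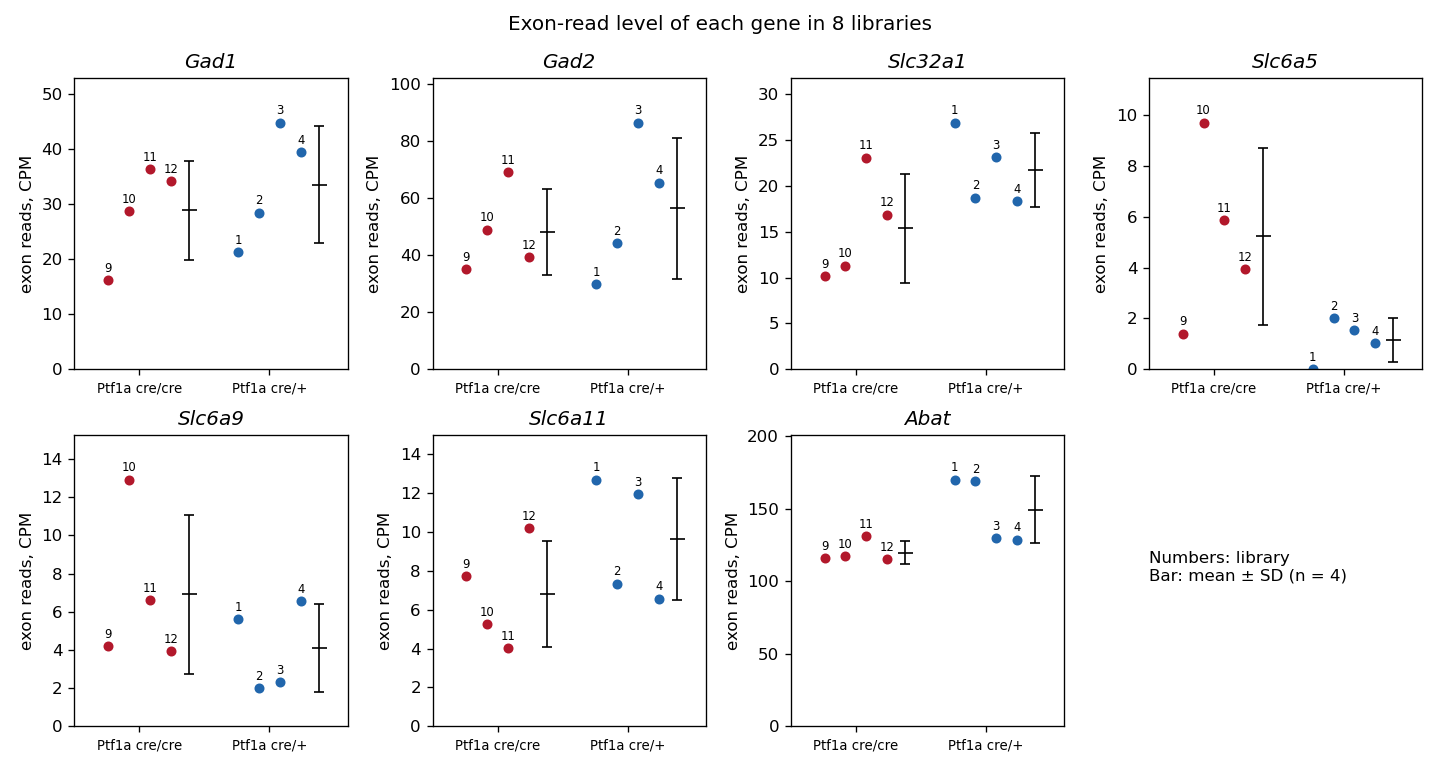
Exon-read level of each gene in CPM (vertical axes start at 0) by genotype, Ptf1a cre/cre left and Ptf1a cre/+ right; points are libraries with their numbers, and bars give the mean and SD (n = 4). The genotypes overlap in all 7 panels; Abat runs from 115 to 131 CPM in Ptf1a cre/cre and from 129 to 170 CPM in Ptf1a cre/+.

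Neither of the glutamate decarboxylase genes passed between genotypes. Gad1 (GAD67, ENSMUSG00000070880, chromosome 2, 70553072 to 70602014 on GRCm38), which supplies most of a neuron's basal GABA, had 16.1, 28.7, 36.3 and 34.2 CPM in homozygous libraries 9, 10, 11 and 12, against 21.3, 28.4, 44.7 and 39.4 CPM in heterozygous libraries 1, 2, 3 and 4. Libraries 9 and 1 were the lowest of their genotypes and libraries 11 and 3 the highest, and the groups overlapped. The log2 fold change was -0.22 ± 0.28 (SE; 95% interval -0.82 to 0.38; edgeR adjusted p = 0.654; exact two-sided permutation p = 0.543). The antisense gene Gad1os overlaps the start of Gad1 in GENCODE, and it held 0 to 8 exon reads in a library.

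Gad2 (GAD65, ENSMUSG00000026787, chromosome 2, 22622205 to 22693874), the decarboxylase held at synaptic vesicles, had 35.1, 48.8, 68.9 and 39.3 CPM in homozygous libraries 9 to 12 and 29.9, 44.1, 86.3 and 65.4 CPM in heterozygous libraries 1 to 4. The lowest and the highest value were both heterozygous. The log2 fold change was -0.23 ± 0.29 (95% interval -0.85 to 0.39; adjusted p = 0.641). Gad2 and Gad1 moved together over the 8 libraries (Pearson r = 0.841 of log2 CPM, a description over libraries that share their depth and base composition). The Gad2 to Gad1 ratio in TPM was 1.49 to 2.83 in homozygous and 1.82 to 2.51 in heterozygous libraries, the homozygous range enclosing the heterozygous one.

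On exon reads the values of both decarboxylases moved with the setting, and neither passed in any of these fits. With the receptor-gene density as a covariate, the log2 fold changes were -0.88 for Gad1 (adjusted p = 0.0946) and -0.89 for Gad2 (adjusted p = 0.0660). Without heterozygous libraries 1 and 2, which had the highest GC slopes, they were -0.56 and -0.67 (adjusted p = 0.330 and 0.154). After correction for GC content they were -0.19 and -0.46 (adjusted p = 0.784 and 0.390). Without heterozygous library 3 Gad2 was at -0.0034, and without homozygous library 9 Gad1 was at -0.06. Leaving out libraries 1 and 2 together was chosen after the data were seen.

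Reads that cross exon-exon junctions gave a different picture for Gad2. Homozygous libraries 9 to 12 held 16, 14, 19 and 13 such reads of Gad2, against 21, 54, 30 and 43 in heterozygous libraries 1 to 4. Every homozygous library was below every heterozygous one, at 23.4 to 32.0 against 32.7 to 76.0 CPM of exon-exon reads, and the nearest libraries of the 2 genotypes, 11 and 1, nearly touched. Of all genes tested on these reads, 7.83% were lower without overlap. The log2 fold change was -1.12 ± 0.37 (95% interval -1.89 to -0.35; edgeR adjusted p = 0.0538), which missed the threshold of 0.05 that 11% of genes passed.

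Without heterozygous library 1 the exon-exon difference of Gad2 was -1.31 with an adjusted p of 0.0246, and without each other library in turn it was -1.22 to -0.95 with adjusted p of 0.0667 to 0.196. These exon-exon fits without 1 library were not planned and were added after the data were seen. Total exon reads of Gad2 did not show that separation, and exon-exon reads were 210 of its 1134 exon reads over all libraries. For Gad1 the exon-exon reads were 7, 18, 18 and 21 in homozygous libraries and 19, 15, 22 and 37 in heterozygous ones. The Gad1 counts overlapped between genotypes, with a log2 fold change of -0.40 (95% interval -1.34 to 0.54; adjusted p = 0.620).

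**Figure D3:**
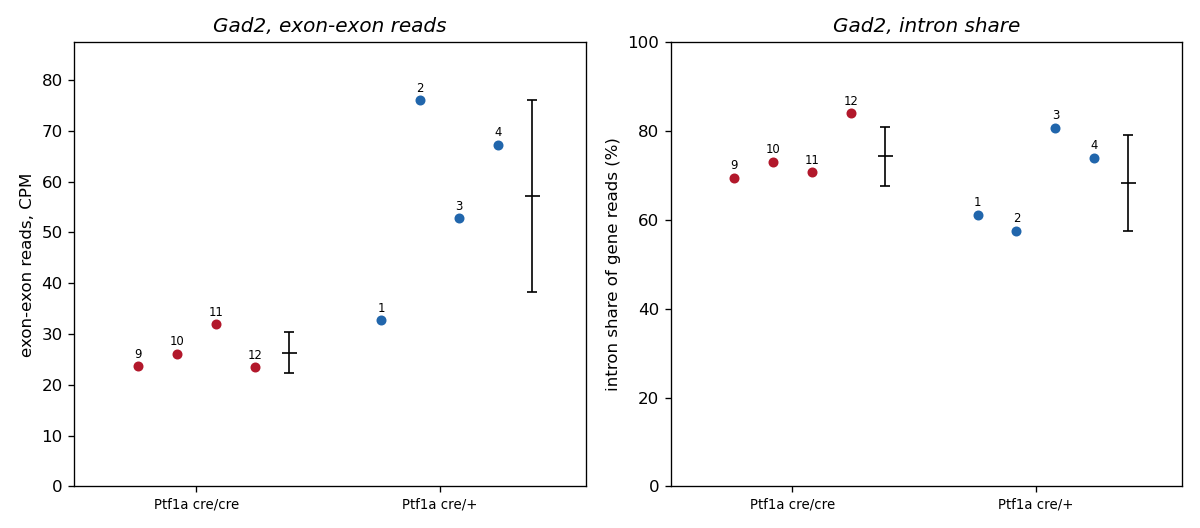
Left, exon-exon reads of Gad2 in CPM of exon-exon reads; right, intron reads as a percentage of all Gad2 reads; points are numbered libraries, Ptf1a cre/cre left of Ptf1a cre/+, with mean and SD (n = 4). On the left the Ptf1a cre/cre libraries (23.4 to 32.0 CPM) lie below the Ptf1a cre/+ libraries (32.7 to 76.0 CPM), and on the right the genotypes overlap.

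Introns held more reads of both decarboxylases than exons did. Gad1 had 122, 179, 241 and 225 intron reads in homozygous and 107, 157, 281 and 247 in heterozygous libraries. Scaled by the TMM factors of the intron reads, these became 20.5 to 28.3 CPM in homozygous and 37.995 to 50.1 CPM in heterozygous libraries, without overlap, as in 6.8% of genes lower on that scale. The log2 fold change was -0.76 (95% interval -1.23 to -0.30; edgeR adjusted p = 0.119). The TMM factors of intron reads were 0.992 to 1.65 in homozygous and 0.558 to 0.987 in heterozygous libraries, and on the library sizes of the exon reads the same difference was 0.03. The median log2 fold change over all genes was 0.02 with the TMM factors of intron reads and 0.81 on exon library sizes. The antisense gene Gad1os held 29, 87, 65 and 95 intron reads in homozygous and 8, 4, 35 and 37 in heterozygous libraries. The sign of Gad1 in introns therefore depends on how intron reads are scaled, while Gad1 lay below the median gene on both scales. On intron reads 0 members passed, as on whole-gene reads, where 0.564% and 0.0307% of genes passed.

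The share of a gene's reads that fell in introns needs no scaling between libraries. It is not free of other differences between libraries, and the part of the receptor-gene density in it was not tested. For Gad1 it was 72.6%, 71.6%, 70.9% and 72.1% in homozygous libraries, against 65.2%, 64.9%, 70.8% and 68.4% in heterozygous ones. Every homozygous value was above every heterozygous one, as in 5.43% of genes, with libraries 11 and 3 nearly touching. The means were 71.8 ± 0.742% in homozygous and 67.3 ± 2.80% in heterozygous libraries (exact permutation p = 0.0286, the smallest that 4 against 4 libraries allow; adjusted p = 0.432 over 10845 genes, of which 0 passed and 717 had an unadjusted p at that minimum). The median gene's share was itself 4.71 points higher in homozygous libraries, and the 4.47 points of Gad1 were near it. For Gad2 the shares were 69.5% to 84.0% in homozygous and 57.6% to 80.8% in heterozygous libraries (exact permutation p = 0.4).

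Slc32a1 (VGAT, ENSMUSG00000037771, chromosome 2, 158610767 to 158615748), the vesicular transporter shared by GABA and glycine, had 10.2, 11.3, 23.1 and 16.9 CPM in homozygous libraries 9 to 12, against 26.9, 18.7, 23.1 and 18.3 CPM in heterozygous libraries 1 to 4. Homozygous libraries 9, 10 and 12 were below all heterozygous ones, and library 11 was level with heterozygous library 3. The means were 15.4 ± 5.93 CPM in homozygous and 21.8 ± 4.05 CPM in heterozygous libraries (log2 -0.50 ± 0.30, 95% interval -1.14 to 0.14, edgeR adjusted p = 0.282; exact permutation p = 0.114). Slc32a1 is the member richest in GC, at 61.9% of its transcript, and after the GC correction the difference was -0.02 (edgeR adjusted p = 0.981). That correction cannot tell GC content from genotype in these libraries.

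Slc32a1 counts came from 404 exon reads in all libraries, of which 73.3% mapped uniquely, and with the unique reads alone the difference was -0.57. Its exon-exon reads were 0, 0, 3 and 0 in homozygous and 0, 2, 5 and 2 in heterozygous libraries, under the filter for a test. The antisense gene Gm14205 overlaps Slc32a1. Whether strand was used in counting is not given in the sources used here, so reads of Gad1, Slc32a1 and Slc6a9 and of their opposite-strand neighbours cannot be told apart. Gm14205 held 10 and 13 exon reads in homozygous libraries 10 and 12, 16 and 14 in heterozygous libraries 1 and 2, and 0 in the other 4.

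The vesicular transporters of glutamate and of GABA load opposing transmitters, and Slc17a6, the glutamate one, was set against Slc32a1 after its values were seen. The ratio of Slc17a6 to Slc32a1 in TPM was 8.70, 9.79, 4.05 and 5.59 in homozygous libraries 9 to 12, against 2.39, 3.21, 2.50 and 4.12 in heterozygous libraries 1 to 4. Homozygous library 11 fell just inside the heterozygous range and the other 3 lay above it, a description given with no test. Slc17a6 itself stood at 171 to 214 CPM in homozygous and 111 to 146 CPM in heterozygous libraries, and the difference of Slc32a1 was -0.02 after the GC correction.

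The GABA transporter gene Slc6a11 (GAT3, ENSMUSG00000030307, chromosome 6, 114131241 to 114249952), found mainly in astrocytes of the adult brain, was sparse. It had 22, 13, 11 and 26 exon reads in homozygous libraries, or 7.72, 5.25, 4.03 and 10.2 CPM, and 34, 22, 31 and 19 in heterozygous ones, or 12.7, 7.35, 11.9 and 6.57 CPM. Libraries 1 and 3 were highest, and library 12 lay within the heterozygous range. The log2 fold change was -0.50 ± 0.45 (95% interval -1.46 to 0.46; adjusted p = 0.496). It was -0.33 after the GC correction and -0.22 with the receptor-gene covariate.

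Introns of Slc6a11 held many more reads than its exons and did not follow the same direction. They held 97, 330, 253 and 255 reads in homozygous and 36, 110, 107 and 182 in heterozygous libraries, and the intron difference was 0.35 with TMM factors of intron reads and 1.22 on exon library sizes (adjusted p = 0.448 and 0.249). The median over all genes was 0.02 with those factors and 0.81 on exon library sizes. The receptor-gene density, 0.0964 to 0.626 CPM per kilobase in homozygous and 0.0105 to 0.241 in heterozygous libraries, was not set beside these intron reads. Its part in the intron reads was not tested. Intron reads were 81.5% to 96.2% of all Slc6a11 reads in homozygous and 51.4% to 90.5% in heterozygous libraries (exact permutation p = 0.114). The difference in mean share, 15.4 points, was larger than in 90.2% of genes. Astrocyte markers (6 genes) summed to 119.98 to 192 CPM in homozygous and 76.6 to 212 CPM in heterozygous libraries; none of the 6 was at 0 in all libraries, 1 had enough reads for a test and did not pass, and their part in the level of Slc6a11 was not tested. Slc1a2, a glutamate transporter, made up most of that sum, with 134 ± 25.6 CPM in homozygous and 127 ± 59.1 CPM in heterozygous libraries.

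Abat (GABA transaminase, ENSMUSG00000057880, chromosome 16, 8513429 to 8621568), the mitochondrial enzyme that starts GABA breakdown, was the most abundant member. It had 116, 117, 131 and 115 CPM in homozygous libraries 9 to 12, against 170, 169, 130 and 129 CPM in heterozygous libraries 1 to 4. Heterozygous libraries 1 and 2 stood well above all others, and libraries 3 and 4 were level with homozygous library 11. The means were 119.8 ± 7.68 CPM in homozygous and 149 ± 23.2 CPM in heterozygous libraries (log2 -0.32 ± 0.13, 95% interval -0.61 to -0.03, edgeR p = 0.0320, adjusted p = 0.130; exact permutation p = 0.0857). Without heterozygous libraries 1 and 2 the log2 fold change was -0.12 (adjusted p = 0.727), and after the GC correction it was -0.39 (adjusted p = 0.231). With the receptor-gene covariate it was -0.13 (adjusted p = 0.733).

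The spliced reads of Abat gave no such difference. Homozygous libraries held 99, 79, 120 and 90 exon-exon reads, against 99, 94, 104 and 108 in heterozygous libraries, and the groups overlapped (log2 0.05, 95% interval -0.36 to 0.45, adjusted p = 0.911). Intron reads made up 61.1 ± 5.49% of Abat reads in homozygous and 48.9 ± 10.1% in heterozygous libraries (exact permutation p = 0.114, adjusted p = 0.494). Heterozygous libraries 1 and 2, the highest in exon reads of Abat, had the lowest intron shares, 39.5% and 41.1%, and the other 6 libraries had 53.3% to 65.2%.

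The 2 glycine transporter genes were the only members with more exon reads in homozygous than in heterozygous libraries in sum, with 54 in homozygous against 13 in heterozygous libraries for Slc6a5 and 72 in homozygous against 46 in heterozygous libraries for Slc6a9. Slc6a5 (GlyT2, ENSMUSG00000039728, chromosome 7, 49910146 to 49963856), the transporter that defines glycinergic terminals, had 4, 24, 16 and 10 exon reads in homozygous libraries 9 to 12, against 0, 6, 4 and 3 in heterozygous libraries 1 to 4. That is 1.40, 9.69, 5.86 and 3.93 CPM in homozygous libraries and 0, 2.00, 1.54 and 1.04 CPM in heterozygous ones, where 0 reads in library 1 allow up to 1.12 CPM (3 reads; counting error only). Homozygous libraries 10, 11 and 12 were above all heterozygous ones, and library 9 lay among them. Slc6a5 fell under the filter on low counts, and its exact permutation p was 0.0857; without the filter edgeR gave a log2 fold change of 1.98 (95% interval 0.03 to 3.92, adjusted p = 0.240).

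Reads over Slc6a5 were set beside the density of reads over receptor genes that these cells should not express. At the density of the receptor genes in each library, the exon length of Slc6a5 would hold 2.09, 11.6, 10.4 and 9.07 reads in homozygous libraries and 0.209, 0.709, 2.70 and 4.91 in heterozygous ones. The observed counts were near or below these numbers in libraries 12, 1 and 4 and above them in libraries 9, 10, 11, 2 and 3. Only 1 of the 67 exon reads crossed a splice junction, in library 10, and introns held 9, 88, 69 and 101 reads in homozygous and 5, 10, 9 and 39 in heterozygous libraries. The receptor-gene density was set beside the exon reads only, and its part in the intron reads was not tested. Markers of hindbrain and spinal cord (7 genes) summed to 4.21 to 11.4 CPM in homozygous and 1.12 to 6.23 CPM in heterozygous libraries. None of the 7 was at 0 in all libraries, none had enough reads for a test, and their part in Slc6a5 was not tested.

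Slc6a9 (GlyT1, ENSMUSG00000028542, chromosome 4, 117834506 to 117875198), a glycine transporter known mainly from glia, had 12, 32, 18 and 10 exon reads in homozygous libraries 9 to 12 and 15, 6, 6 and 19 in heterozygous libraries 1 to 4. In CPM these were 4.21, 12.9, 6.60 and 3.93 in homozygous and 5.60, 2.00, 2.31 and 6.57 in heterozygous libraries. Library 10 was highest, and libraries 9 and 12 lay within the heterozygous range. The log2 fold change was 0.73 ± 0.60 (95% interval -0.55 to 2.02; edgeR adjusted p = 0.448; exact permutation p = 0.229). It was 0.97 after the GC correction and 0.41 with the receptor-gene covariate. Only 21 of its 118 exon reads and 4 of its 471 intron reads mapped uniquely, and on unique reads it was too sparse to test. Ccdc24 and B4galt2 overlap it on the opposite strand in GENCODE.

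**Figure D4:**
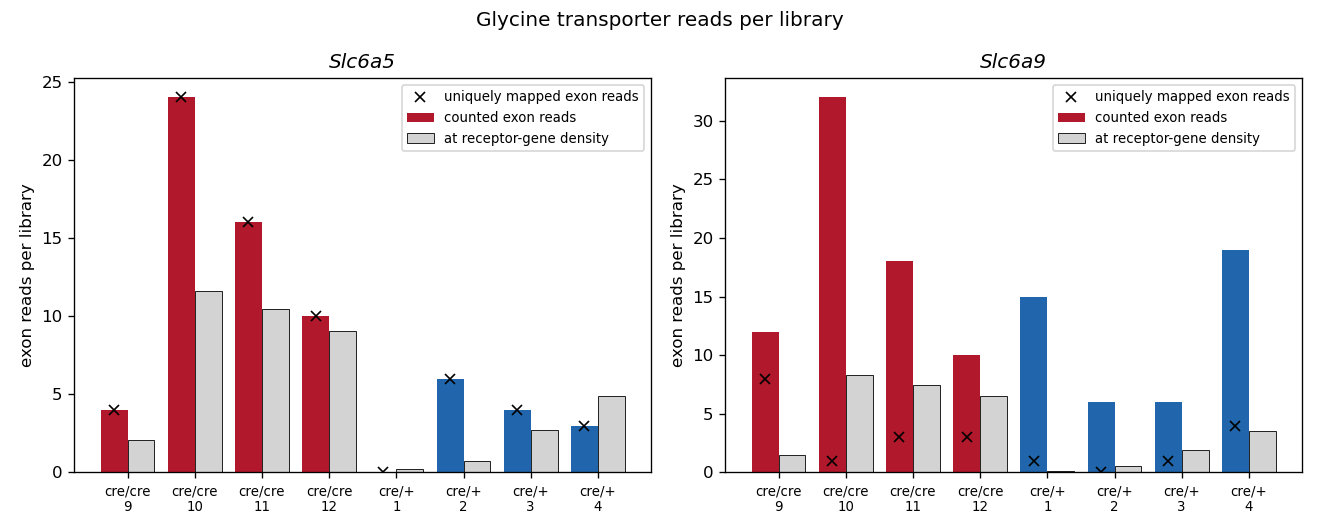
Exon reads per library of Slc6a5 (left) and Slc6a9 (right), Ptf1a cre/cre in red and Ptf1a cre/+ in blue; crosses are uniquely mapped exon reads, and grey bars are the reads that the gene's exon length would hold at the density of olfactory and vomeronasal receptor genes in that library. All Slc6a5 reads are unique, against 21 of 118 for Slc6a9, and grey bars are taller in 3 of the 4 Ptf1a cre/cre libraries than in any Ptf1a cre/+ library.

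**Figure D5:**
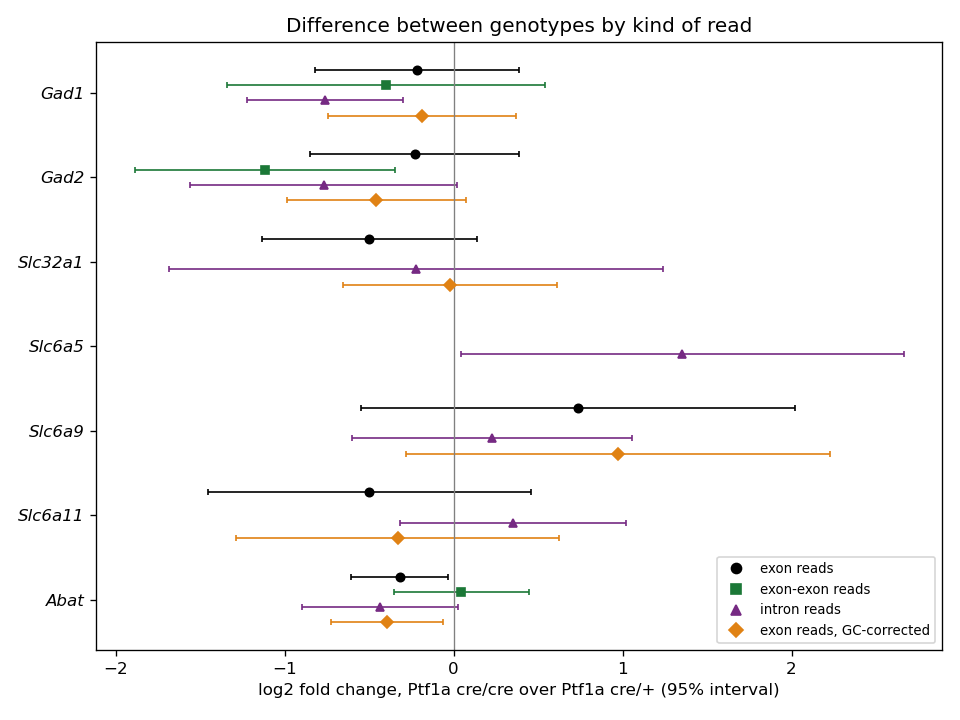
Log2 fold change of each gene, Ptf1a cre/cre over Ptf1a cre/+, with 95% interval, from edgeR on exon reads (circles), exon-exon reads (squares), intron reads (triangles) and exon reads corrected for GC content (diamonds); a missing symbol means too few reads for that fit. Slc6a5 and Slc6a9 lie above 0 wherever they could be fitted, and Abat and Slc6a11 change side between kinds of read. Gad1 and Gad2 lie below 0 in all 4 (intron reads of Gad1 give 0.03 on exon library sizes, where the median gene is at 0.81).

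Other genes of the pathway were read from lists of related genes, beside 6.96% of all genes called higher and 6.12% called lower on exon reads, with a median log2 fold change of 0.04 over all genes. Slc6a8, the creatine transporter, had a difference of -0.88 (adjusted p = 0.0811), and Slc6a13 and Slc6a12, further transporters of GABA and betaine, had too few reads to test. Among 12 tested genes of 15 for glutamine and glutamate supply and GABA breakdown, none rose, 1 fell and 11 did not pass, with a median log2 fold change of 0.05. Got2, the mitochondrial aspartate aminotransferase, fell to 96.5 ± 18.7 CPM in homozygous libraries, against 139.7 ± 14.0 CPM in heterozygous ones (log2 -0.53, adjusted p = 0.0316), a call lost without library 1, 2, 10, 11 or 12 and after the GC correction. The Got2 difference was -0.47 after that correction and -0.31 with the receptor-gene covariate. Glul, glutamine synthetase, had a difference of -0.29 (adjusted p = 0.188), and of -0.11 with the covariate. Among 9 tested genes of 12 for glycine and serine supply and glycine cleavage, 1 rose, none fell and 8 did not pass, with a median log2 fold change of -0.15. The riser was Dld, the dihydrolipoamide dehydrogenase that the glycine cleavage system shares with other complexes, at 73.4 ± 21.7 CPM in homozygous and 39.7 ± 7.55 CPM in heterozygous libraries (log2 0.88, adjusted p = 0.0171). That call was lost without library 1 or 11 and after the GC correction, where the difference was 0.21, and it was 0.52 with the covariate. Slc1a4, a transporter of serine and alanine, had a difference of -0.52 (adjusted p = 0.165).

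Of the 11 genes for the inhibitory synapse scaffold, chloride transport and the vesicle proton pump, all were tested, and none rose, 2 fell and 9 did not pass, with a median log2 fold change of 0.15. Nlgn2, the neuroligin of inhibitory synapses, fell to 230.2 ± 42.9 CPM in homozygous libraries, against 348 ± 41.7 CPM in heterozygous ones (log2 -0.60, adjusted p = 0.0172). Its genotypes did not overlap, as in 9.34% of genes lower in CPM. Slc12a5 (KCC2), the chloride extruder that makes GABA inhibitory in mature neurons, fell to 62.5 ± 13.2 CPM in homozygous libraries, against 94.96 ± 16.4 CPM in heterozygous libraries (log2 -0.60, adjusted p = 0.0361). With the GC correction the differences were -0.21 for Nlgn2 and -0.27 for Slc12a5, and both calls were lost. The call of Nlgn2 was also lost without library 2, 10, 11 or 12, and that of Slc12a5 without library 1, 4, 9, 11 or 12.

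Of 23 transcription factors of inhibitory neurons, 15 were tested, and 1 rose, 3 fell and 11 did not pass, with a median log2 fold change of -0.13. Dlx2, a homeobox factor that drives Gad genes in the forebrain, fell to 27.7 ± 11.6 CPM in homozygous libraries, against 56.0 ± 9.39 CPM in heterozygous ones (log2 -1.01, adjusted p = 0.0171), a call lost without library 2, 10 or 12 and after the GC correction (log2 -0.64). Prdm13, a zinc finger repressor, and Lhx5, a LIM-homeodomain factor, also fell (log2 -2.67 and -1.29) and Tfap2b, an AP-2 factor, rose (log2 3.18), and of these 4 genes Prdm13 and Lhx5 passed after the GC correction. The call of Tfap2b was lost after that correction, at a log2 fold change of 3.28, and without library 1, 2, 4, 10, 11 or 12. With the receptor-gene covariate the Tfap2b difference was 0.37.

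The genes whose levels over the 8 libraries were most like the mean of Gad1, Gad2 and Slc32a1 were Taz (Pearson r = 0.948 of log2 CPM), Sec24a (0.944), Ikbkb (0.936), Nrxn3 (0.906) and Rasgef1b (0.900), among 7346 candidates. None of the 5 passed between genotypes on exon reads. They are the highest of 7346 correlations over only 8 libraries. How many values this high unrelated genes would give was not tested, so the list is a description only. Among the members themselves, r was 0.841 for Gad1 with Gad2, 0.461 for Gad1 with Slc32a1, 0.643 for Slc32a1 with Abat and -0.690 for Slc6a5 with Slc6a11, over the same 8 libraries, which share their depth and composition between genes.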

How the data were processed

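Paired reads of 36 bases were sequenced from 10 ng of RNA a library, per the labels. The authors deposited, per library, counts over exons, introns, the whole gene and exon-exon junctions, each as total and as unique reads, with RPKM and TPM values and an exon length for each Ensembl gene. Builds GRCm38 and mm10 are named in the submitters' processing notes, and no aligner or counter is given in the sources used here. Whole-gene counts equalled exon plus intron counts for 100% of genes. Counts were fitted with edgeR 4.0.16 (filterByExpr, TMM, quasi-likelihood F test, Benjamini-Hochberg over all tested genes), which was checked on simulated counts; DESeq2 1.42.0 was an alternative. Intervals of fold changes are 95%. Exact two-sided permutation tests over 35 splits used log2(CPM + 1) or the intron share. The minimum of 20 reads in each library, intron plus exon, applied to the intron share only. The deposited RPKM was not used in a result; TPM, deposited by the authors, served for levels between genes. The GC correction added a loess curve of log2 counts on transcript GC content (GENCODE) as an offset per library.

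Replicates differed from each other by more than counting noise, so no library was counted as a repeat of another. Squared differences relative to counting noise, averaged over genes, were 6.10 for heterozygous libraries 1 and 2 and 5.81 for 3 and 4. Between libraries 1 or 2 and libraries 3 or 4 they were 10.4 to 16.1, and among homozygous libraries 5.55 to 9.12. The tests treated the heterozygous libraries as a single group. The 7 genes and the lists of related genes were chosen with earlier results of these data known. From each list the called genes and the 2 with the smallest p were named; the 5 genes most like the GABA genes were taken among genes with a mean of at least 20 CPM; other genes were named after their values were seen. One gene of these lists is not reported here, though it counts in the totals over the related genes. Alternatives were other size factors, filters, kinds of read, the GC correction and leaving out each library. Counting intervals and floors cover counting error only.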

Additional observations from a re-analysis of the deposited data

Results flagged for a closer look

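In 55 sets of 4 libraries (7 genes, 4 measures, 2 genotypes, leaving out sets with no spread), 4 had a library that stood far from the other 3 of its genotype. For normally distributed values chance alone marks about 1 in 20 sets. That rate does not hold for sparse counts, since a set with 3 libraries at 0 and 1 above it is always marked. Gad1 had 20.5 CPM of intron reads in homozygous library 10, against 27.8 to 28.3 CPM in the other homozygous libraries. Abat had 131 CPM of exon reads in homozygous library 11, against 115 to 117 CPM in the others. Slc32a1 had 5.05 CPM of exon-exon reads in homozygous library 11, which is 3 reads, against 0 in the others. Slc6a5 had 1.87 CPM of exon-exon reads in homozygous library 10, which is 1 read, against 0 in the others.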

How the results depend on the processing

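Over 163 fits of single members in 30 settings, the one that passed was Gad2 on exon-exon reads without heterozygous library 1, so the count of members called was 1 there and 0 in every other setting run. The exon-exon fits without 1 library were not planned. The same holds for the fits of unique intron reads and of intron reads on exon library sizes. Adjusted p ranged from 0.0246 to 0.996 for Gad2, 0.0946 to 0.963 for Gad1, 0.135 to 0.985 for Slc32a1, 0.0790 to 0.369 for Slc6a5, 0.249 to 0.855 for Slc6a9, 0.249 to 0.891 for Slc6a11 and 0.0507 to 0.957 for Abat. Signs turned with the kind of read. Intron reads on exon library sizes gave 0.0279 for Gad1, 0.73 for Slc32a1, 0.41 for Abat and 1.22 for Slc6a11. The median over all genes in that fit was 0.81, so Gad1, Slc32a1 and Abat were above 0 but below the median gene. Slc6a11 was also at 0.45 on whole-gene reads, 0.35 on intron reads and 0.35 on unique intron reads. Abat was at 0.0458 on exon-exon reads, and at 0.0319 to 0.12 in 6 of the 8 such fits without 1 library (0.0319, 0.12, 0.0769, 0.10, 0.10 and 0.0554). The cause was not tested. On exon reads without each library in turn, the log2 fold change was -0.39 to -0.06 for Gad1, -0.46 to -0.0034 for Gad2, -0.77 to -0.38 for Slc32a1, 0.25 to 1.05 for Slc6a9, -0.76 to -0.32 for Slc6a11 and -0.43 to -0.26 for Abat.

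Of all genes, 1603 were called (853 higher, 750 lower), 1992 by DESeq2 and 734 to 2077 without 1 library. Counts were 778 on exon-exon reads, 96 on intron reads, 6 on whole-gene reads, 137 after the GC correction, 435 with the receptor-gene covariate and 474 without heterozygous libraries 1 and 2. The split was 782 higher and 1365 lower with no filter, and 559 and 1004 with at least 1 CPM in 4 libraries. Relative to exon reads as fitted, the median of all genes shifted by -0.13 with no filter, -0.38 on whole-gene reads, -0.37 on intron reads and 0.44 with intron reads on exon library sizes. Among the related genes 9 were called, 3 on exon-exon reads, 0 on intron or whole-gene reads, 2 after the GC correction, 2 with the covariate, 3 without libraries 1 and 2, and 4 to 9 without 1 library. Exact permutation on CPM of unscaled totals gave 0.0286 for Abat (adjusted p = 0.135). No paired analysis was possible because no homozygous and heterozygous library share a number. Depth limits Slc6a5, Slc6a9 and Slc6a11 most, with 67, 118 and 178 exon reads in all 8 libraries.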
